A study of Homo sapiens with 18 samples.

Results

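The comparison described here sets untreated SKMEL5 against untreated WM2664, 2 established human melanoma cell lines, across all genes. Its members are the DMSO arrays of both lines, taken from the sample titles with no use of measured values. They are 8 of the 18 arrays of the series, 4 of SKMEL5 and 4 of WM2664. Each line has 2 DMSO arrays at 6 h and 2 at 24 h, so the groups are SKMEL5 at 6 h, SKMEL5 at 24 h, WM2664 at 6 h and WM2664 at 24 h. The solvent and the serum-supplemented RPMI medium are common to all of them. The wider study treated these lines and the line A375 with A-485, an inhibitor of the p300 and CBP acetyltransferases, and its title names the transcription factor MITF. Each line is represented by itself alone, and the labels do not say whether arrays came from separate cultures. The p-values below therefore measure the spread between these arrays, which may be technical, and a difference belongs to these lines and not to a class of melanoma.

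Melanocytes make melanin in melanosomes, lysosome-related organelles built on a matrix of PMEL fibrils and filled by the enzymes TYR, TYRP1 and DCT. MITF, which binds E-box sequences in promoters and enhancers, drives those genes together with SOX10 and PAX3, factors carried over from the neural crest. Melanoma lines with much MITF are usually called differentiated, and lines with little of it often hold more of the receptor AXL, of mesenchymal matrix genes and of cytokines. How far lines with much MITF still differ from each other is the question this comparison addresses.

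Intensities were quantile normalized over the 18 arrays and values under 32, called the floor, were set to 32. In every list of 4 values below, the 2 arrays at 6 h come before the 2 arrays at 24 h. A gene was tested where it lay above the floor on at least 4 of the 8 arrays, and it was called at an adjusted p under 0.05 in a limma fit with time as a block. Differences are log2, SKMEL5 minus WM2664, ± SE, and adjusted p-values are Benjamini-Hochberg values of that fit over all genes tested. Arrays of 1 line and time correlated across genes at 0.9881 to 0.9928, arrays of 1 line at different times at 0.9823 to 0.99, and arrays of different lines at 0.8348 to 0.851. An array held between 57% and 58.5% of genes above the floor. WM2664 at 6 h replicate 1 stood apart at genes that SKMEL5 expresses: of 16 genes at 1000 or more on every SKMEL5 array and under the floor on the other 3 WM2664 arrays, it read 10 above the floor, with a median excess of 1.83% of the SKMEL5 level. WM2664 at 24 h replicate 2 read 8 of 25 genes above the floor that A375 expresses, with a median excess of 0.696% of the A375 level. Without both arrays 7101 genes were called, 6941 of them among the calls on all 8 arrays and in the same direction.

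The lines differed at most of the genes they express. Of 11822 genes tested, out of 19775 on the array, 8092 were called (68.4%), 4252 higher in SKMEL5 (36%) and 3840 lower (32.5%). Most of these differences were small, with a median absolute difference of 0.445 over all tested genes and a median SE of 0.0868. At least 2-fold differences were called for 2524 genes (21.4%), 1291 of them higher (10.9%) and 1233 lower (10.4%). A further step up, 807 called genes differed at least 4-fold, 376 higher and 431 lower, and 152 at least 16-fold, 72 higher and 80 lower. The 4 SKMEL5 arrays did not overlap the 4 WM2664 arrays at 7197 genes (60.9%). WM2664 was at the floor on all 4 arrays for 411 of the genes called higher, and SKMEL5 for 377 of those called lower. The filter admits such genes only through the other line, which fixes their direction. All 8092 called genes had the same sign at 6 h and at 24 h. The fit nearly fixes this outcome, since it counts disagreement between the times as spread. With 68.4% of genes called, a call says little about a gene by itself, so sizes are given throughout. Counts for gene lists below are likewise to be read against 36% of all genes called higher and 32.5% lower. The balance between directions depends on the scaling: on intensities as deposited with the floor kept, 3944 genes were called higher and 2281 lower, and the median difference over all genes was 0.159 in place of 0.0337.

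**Figure D1:**
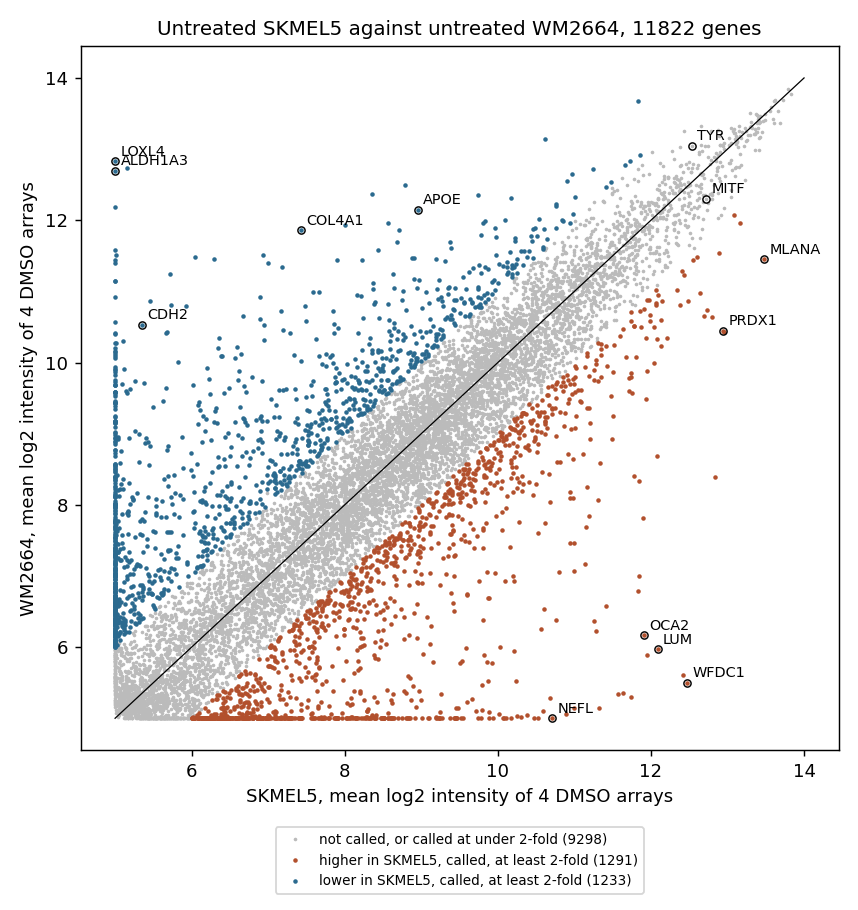
Mean log2 intensity of each of the 11822 tested genes in SKMEL5 (x axis, 4 arrays) against WM2664 (y axis, 4 arrays); coloured points are called and at least 2-fold apart, 1291 higher and 1233 lower in SKMEL5, and the line marks equal levels. The rows of points along both axes at a log2 value of 5 are genes at the floor in that line, and MITF and TYR sit close to the line of equal levels while LOXL4 and LUM lie near opposite corners.

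Both lines expressed the melanocytic markers measured, with OCA2 in doubt for WM2664. Of 20 such markers 18 were measured, and all 18 lay above the floor on all 8 arrays. OCA2 was near the floor of 32 in WM2664, with a highest value of 167. Being above the floor does not set these lines apart from A375, which read 722 to 913 for SOX10 and 421 to 506 for GPNMB. At TYR and MLANA A375 read 32 to 62 and 32 to 264, far below both lines. MITF itself read 6851, 6784, 6600.2 and 6712 in SKMEL5, against 5066, 5126, 4981 and 5044 in WM2664. By this probe set, the brightest, the groups did not overlap, and the difference was 0.41 ± 0.04 (1.33-fold, adjusted p = 8.74e-05). A375 read 407 to 468, far below both lines. The 2 other bright MITF probe sets gave larger differences, 0.53 and 1.64. SOX10 and PAX3, the other main lineage factors, were not called. SOX10 read 3106.5, 3300, 3363 and 3471 in SKMEL5, against 3072, 3368, 3415.5 and 3417 in WM2664, with overlapping groups and a difference of -0.0033 ± 0.05 (adjusted p = 0.96). PAX3 differed by 0.13 ± 0.09 (adjusted p = 0.206), and this small difference passed without WM2664 at 6 h replicate 1 at 0.21 (adjusted p = 0.04). A second, dimmer SOX10 probe set gave a difference of 0.37.

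**Figure D2:**
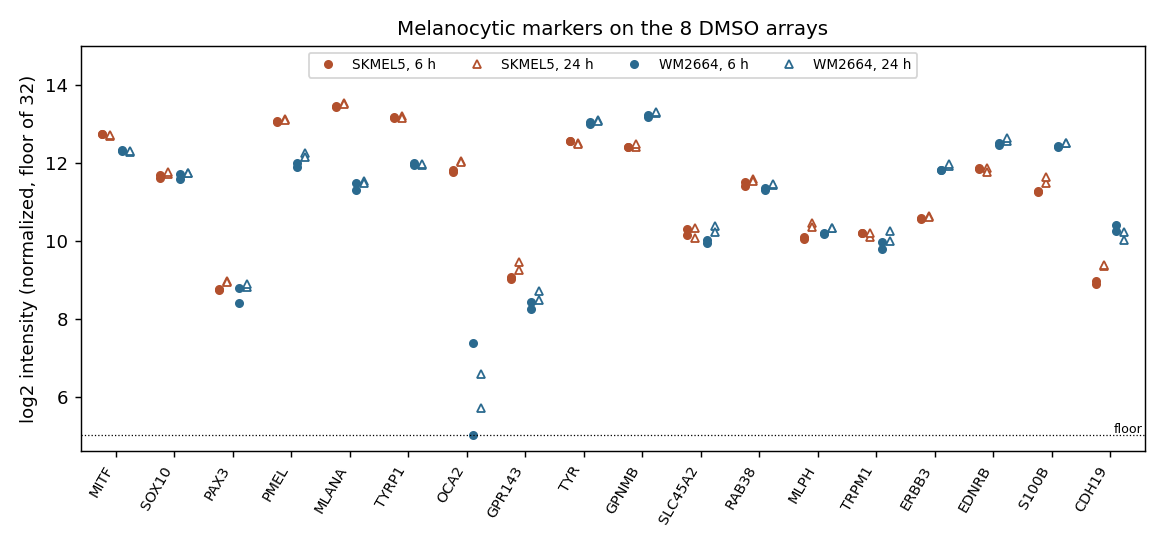
Normalized log2 intensity of the 18 measured melanocytic markers on each of the 8 DMSO arrays, SKMEL5 left of WM2664 within each gene, circles for 6 h and triangles for 24 h. SOX10, PAX3, SLC45A2, RAB38, MLPH and TRPM1 overlap between the lines, MLANA, TYRP1 and PMEL are higher in SKMEL5, TYR, GPNMB, ERBB3, EDNRB and S100B are lower, and OCA2 is near the floor in WM2664 only.

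The genes of melanin synthesis split by direction. Of 12 tested, 7 were higher in SKMEL5 and 4 lower, against 36% and 32.5% of all genes, with a median difference of 0.869 against 0.0337 over all genes. MLANA, a melanosome protein and the MART-1 antigen, read 10983, 11277, 11779 and 11652 in SKMEL5, against 2876, 2542, 2947.5 and 2855.5 in WM2664, a difference of 2.03 ± 0.06. TYRP1, which acts late in eumelanin synthesis, read 9133, 9208, 9366 and 9117.5 in SKMEL5, against 4114, 3923, 3957 and 4001 in WM2664, a difference of 1.20 ± 0.05. Both stood apart on every array. PMEL, the fibril protein, read 8484.5, 8623, 8937 and 8792 in SKMEL5, against 4066, 3813, 4867 and 4560.4 in WM2664 (1.02 ± 0.06), and its call was lost when all 18 arrays were fitted (adjusted p = 0.0637). TYR, the rate-limiting enzyme of the pathway, ran the other way at 6055, 6032, 5827 and 5753 in SKMEL5, against 8421, 8147, 8702 and 8623 in WM2664 (-0.52 ± 0.05). The TYR groups did not overlap, yet the call was lost on intensities as deposited, with a difference of -0.40 (adjusted p = 0.0608).

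The transporter OCA2 differed most of these genes. OCA2, which sets the pH of the melanosome and underlies a form of oculocutaneous albinism, read 3468, 3585, 4251 and 4158 in SKMEL5, against 167, 32.3, 95.4 and 51.9 in WM2664. The highest WM2664 value was the array that stood apart, and the difference was 5.74 ± 0.47 on all 8 arrays and 6.25 without it. CAPN3, a calpain protease, read 3541, 3566, 3619.7 and 3368 in SKMEL5, against 337, 300, 339 and 379.9 in WM2664 (3.38 ± 0.07). TSPAN10, a tetraspanin, differed by 2.91 ± 0.14 and GPR143, the OA1 receptor of melanosomes, by 0.72 ± 0.08. Among the genes lower in SKMEL5, MC1R, the receptor for melanocortin that turns synthesis towards eumelanin, read 76.6, 81.8, 54.9 and 71.9 in SKMEL5, against 498, 506, 437 and 449 in WM2664 (-2.74 ± 0.09). GPNMB, a glycoprotein related to PMEL, differed by -0.83 ± 0.05 and SLC7A11, the cystine transporter, by -0.61 ± 0.12. SLC45A2, another melanosome transporter, was not called at 0.07 ± 0.10.

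Promoter sequence was looked up because MITF is known to bind CATGTG in several of these genes. RefSeq promoters (GRCh38.p14) were searched on both strands in the 250 bases before each start for CATGTG, whose reverse complement is CACATG. The motif was found in 7 of the 9 tested melanin genes with an entry, in 4 of 6 called higher and 3 of 3 called lower, against 9.42% of all 35116 promoters of that length. In the list of MITF targets outside pigmentation it was in 7 of 18, in 5 of 14 called higher and 1 of 2 called lower. Genes with several promoters were counted where any of them held it, and the related CACGTG was in none of the 9 against 6.34% of all promoters. The 250 bases before the start are shown for 4 melanin genes that differ in direction and size and for CEACAM1, a MITF target that was near the floor in WM2664, on the strand of the gene with the matches in capitals.
TYR: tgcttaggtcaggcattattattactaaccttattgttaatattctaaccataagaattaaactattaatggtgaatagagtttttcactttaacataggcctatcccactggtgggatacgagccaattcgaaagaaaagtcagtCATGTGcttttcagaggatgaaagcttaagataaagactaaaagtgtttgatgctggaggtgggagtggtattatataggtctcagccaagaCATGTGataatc
TYRP1: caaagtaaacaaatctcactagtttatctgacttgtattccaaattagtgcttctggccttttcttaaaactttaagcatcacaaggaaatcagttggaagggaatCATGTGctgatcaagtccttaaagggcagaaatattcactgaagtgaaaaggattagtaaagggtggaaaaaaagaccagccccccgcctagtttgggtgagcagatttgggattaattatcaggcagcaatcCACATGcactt
OCA2: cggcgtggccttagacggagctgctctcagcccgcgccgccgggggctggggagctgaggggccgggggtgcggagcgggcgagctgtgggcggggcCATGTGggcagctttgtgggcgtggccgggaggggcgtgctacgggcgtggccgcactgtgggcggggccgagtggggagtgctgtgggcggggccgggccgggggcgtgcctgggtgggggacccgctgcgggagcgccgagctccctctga
TSPAN10: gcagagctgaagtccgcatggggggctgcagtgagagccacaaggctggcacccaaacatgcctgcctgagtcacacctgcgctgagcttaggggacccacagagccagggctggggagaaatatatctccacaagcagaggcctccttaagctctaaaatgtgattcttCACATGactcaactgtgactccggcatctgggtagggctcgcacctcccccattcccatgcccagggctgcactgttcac
CEACAM1: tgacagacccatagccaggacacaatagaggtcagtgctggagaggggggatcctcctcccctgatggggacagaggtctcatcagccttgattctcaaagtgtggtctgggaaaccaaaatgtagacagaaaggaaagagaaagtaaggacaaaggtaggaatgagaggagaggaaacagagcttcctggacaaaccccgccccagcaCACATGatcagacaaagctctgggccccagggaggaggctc
These stretches are chr11:89177625-89177874 on the + strand for TYR, chr9:12693135-12693384 on the + strand for TYRP1, chr15:28099316-28099565 on the - strand for OCA2, chr17:81642055-81642304 on the + strand for TSPAN10 and chr19:42528482-42528731 on the - strand for CEACAM1. TYR and TYRP1 hold 2 matches each, at 104 and 12 bases and at 144 and 11 bases before the start, although TYR was lower and TYRP1 higher in SKMEL5. OCA2, TSPAN10 and CEACAM1 hold 1 match each. A match is a description of these letters and not a measured site, and no binding was measured here.

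Genes that MITF is known to drive outside pigmentation were mostly higher in SKMEL5. Of 25 tested 19 were higher and 3 lower, with a median difference of 0.553. CEACAM1, an adhesion molecule whose promoter is shown above, read 1264, 1264, 1299.5 and 1229 in SKMEL5, against 34.3, 32, 32 and 32 in WM2664 (5.28 ± 0.05). NR4A3, an orphan nuclear receptor, read 1074, 1068, 923 and 882 in SKMEL5, against the floor of 32 on all 4 WM2664 arrays, at least 30.7-fold higher. Both read at or next to the floor on the WM2664 arrays. CDK2, a cell cycle kinase whose gene lies beside PMEL, read 6032, 6103, 7006 and 6533 in SKMEL5, against 2095, 1930.3, 2051 and 1959.9 in WM2664 (1.67 ± 0.06). TBC1D7, a subunit of the TSC complex, differed by 2.05 ± 0.06, SEMA6A, a semaphorin, by 3.23 ± 0.13, and PPARGC1A, a coactivator of mitochondrial genes, by 1.26 ± 0.09. Of the 3 lower genes APOE, an apolipoprotein, read 519, 529.6, 557.5 and 395 in SKMEL5, against 4405, 4604.5, 4592 and 4524 in WM2664 (-3.19 ± 0.11). BCL2A1, a survival gene of the BCL2 family, differed by -0.74 ± 0.07 and HMCN1 by -0.57 ± 0.06. TRPM1, a cation channel, RRAGD, a GTPase of lysosomal nutrient sensing, and IVNS1ABP were not called, at 0.17 ± 0.10, 0.01 ± 0.07 and -0.22 ± 0.16.

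The rest of the lineage list leaned to WM2664. Of 37 neural crest and lineage factors tested 10 were higher in SKMEL5 and 21 lower, with a median of -0.423. TWIST1, a basic helix-loop-helix factor of the neural crest, read 1003, 1016, 954 and 749.8 in SKMEL5, against 66, 56.9, 41.4 and 59.9 in WM2664 (4.06 ± 0.13). Its relatives ID1, ID2 and ID3, which block such factors and are targets of BMP signalling, were higher by 3.72 ± 0.10, 2.92 ± 0.11 and 3.92 ± 0.15. These 4 genes were the largest in the higher direction. FOXD3, an early neural crest factor, was at the floor on all 4 SKMEL5 arrays and read 405, 359, 326.5 and 366 in WM2664, at least 11.3-fold lower. TFAP2B was at the SKMEL5 floor as well (at least 7.83-fold lower), and TFAP2C read 205.5, 198, 205 and 204 in SKMEL5, against 1794, 1792, 2653 and 1997 in WM2664 (-3.32 ± 0.11). SOX9 (-2.19 ± 0.13), SOX5 (-2.27 ± 0.08), NR2F1 (-2.30 ± 0.09) and ZEB1 (-1.81 ± 0.16), factors linked to neural crest and mesenchymal states, were lower, and TFAP2A, a partner of MITF, was higher (0.58 ± 0.05). Receptors of the lineage were lower too. ERBB3, the neuregulin receptor, read 1503, 1547.5, 1598 and 1549 in SKMEL5, against 3595, 3592, 3863 and 4005.5 in WM2664 (-1.28 ± 0.05). EDNRB, the endothelin receptor, differed by -0.71 ± 0.06, S100B by -1.05 ± 0.06 and CDH19 by -1.08 ± 0.14.

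The list of genes known from MITF-low melanoma moved in both directions. Of 21 tested 8 were higher in SKMEL5 and 12 lower, and all but DKK1 were called. AXL, a receptor tyrosine kinase of that state, was at the floor on all 4 SKMEL5 arrays and read 482, 514, 458.5 and 411 in WM2664, at least 14.5-fold lower. COL1A2, a fibrillar collagen chain, read 32, 32, 32 and 32.3 in SKMEL5, against 2639, 2847.5, 2756 and 2898 in WM2664 (-6.44 ± 0.05). LOXL2, a collagen crosslinking enzyme, was at the SKMEL5 floor (at least 15.3-fold lower), and FOSL1, an AP-1 subunit, differed by -2.50 ± 0.15. Against these stood IL6, a cytokine, at 882, 879, 788 and 824 in SKMEL5, against 42.1, 32, 32 and 32 in WM2664 (4.62 ± 0.09). TGFBI (4.84 ± 0.18), NUAK1 (at least 4.11-fold), CCN1 (1.99 ± 0.25), CCN2 (1.65 ± 0.17) and WNT5A (1.09 ± 0.18) were also higher in SKMEL5.

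Among genes above the floor on all 8 arrays, the 12 largest differences in the higher direction ranged from 20.3-fold to 69.5-fold (adjusted p at most 2.27e-05). LUM, lumican, a proteoglycan that organises collagen fibrils, read 4154, 4296, 4177 and 4821 in SKMEL5, against 158, 41.1, 47.6 and 49.7 in WM2664 (6.12 ± 0.40). LXN, latexin, an inhibitor of carboxypeptidases, read 4221, 4190, 3737 and 3663 in SKMEL5, against 121, 39.4, 58.1 and 45.3 in WM2664 (6.05 ± 0.31). For both genes the highest WM2664 value was 6 h replicate 1, and without that array the differences were 6.59 and 6.40. The others were OCA2, FBLN5, an elastic fibre protein, CPVL, a carboxypeptidase, TNFAIP3, the NF-kappaB inhibitor A20, TGFBI, a matrix protein, FBXO32, a ubiquitin ligase subunit, RNLS, FABP5, a fatty acid binding protein, DNER, a Notch-related membrane protein, and GLUL, glutamine synthetase. FABP5 read 7218, 7313, 7284 and 7374 in SKMEL5, against 498, 327.5, 261 and 293 in WM2664 (4.45 ± 0.16), and GLUL read 893, 872, 1037 and 936 in SKMEL5, against 51.5, 55, 41.4 and 38 in WM2664 (4.34 ± 0.12). The lines did not overlap at any of these 12, which were picked for size, against 60.9% of all genes.

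The 12 largest in the lower direction ranged from 17.9-fold to 46.1-fold (adjusted p at most 2.8e-07). FSCN1, fascin, which bundles actin in filopodia, read 46.2, 67.4, 46.7 and 52.2 in SKMEL5, against 2498.5, 2545, 2304 and 2342 in WM2664 (-5.53 ± 0.11). THBS1, thrombospondin 1, read 78.7, 78.9, 59.1 and 52.5 in SKMEL5, against 3205.5, 3017, 2643 and 2661 in WM2664 (-5.44 ± 0.08). CD200, a surface protein that restrains myeloid cells, read 41.3, 43.1, 45.1 and 46 in SKMEL5, against 1761, 1844, 2115.5 and 1781 in WM2664 (-5.41 ± 0.07). The lines did not overlap at any of these 3 genes, which were picked for size as well. CDH2, N-cadherin, read 44.9, 35, 43.6 and 40.1 in SKMEL5, against 1514, 1560.4, 1388 and 1463 in WM2664 (-5.18 ± 0.09). ITGB3, the beta chain of the vitronectin receptor, read 93.9, 101, 56.9 and 69 in SKMEL5, against 2571, 3042, 2890.3 and 2711 in WM2664 (-5.16 ± 0.15). The paired chains of type IV collagen, COL4A1 and COL4A2, differed by -4.43 ± 0.05 and -4.58 ± 0.07. COL6A1 (-4.18 ± 0.15), the hyaluronan-binding ITIH5 (-4.39 ± 0.05), the sestrin SESN3 (-4.87 ± 0.13), HLA-DPA1 (-4.75 ± 0.11) and the transcription factor NFATC2 (-4.16 ± 0.09) complete the set.

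**Figure D3:**
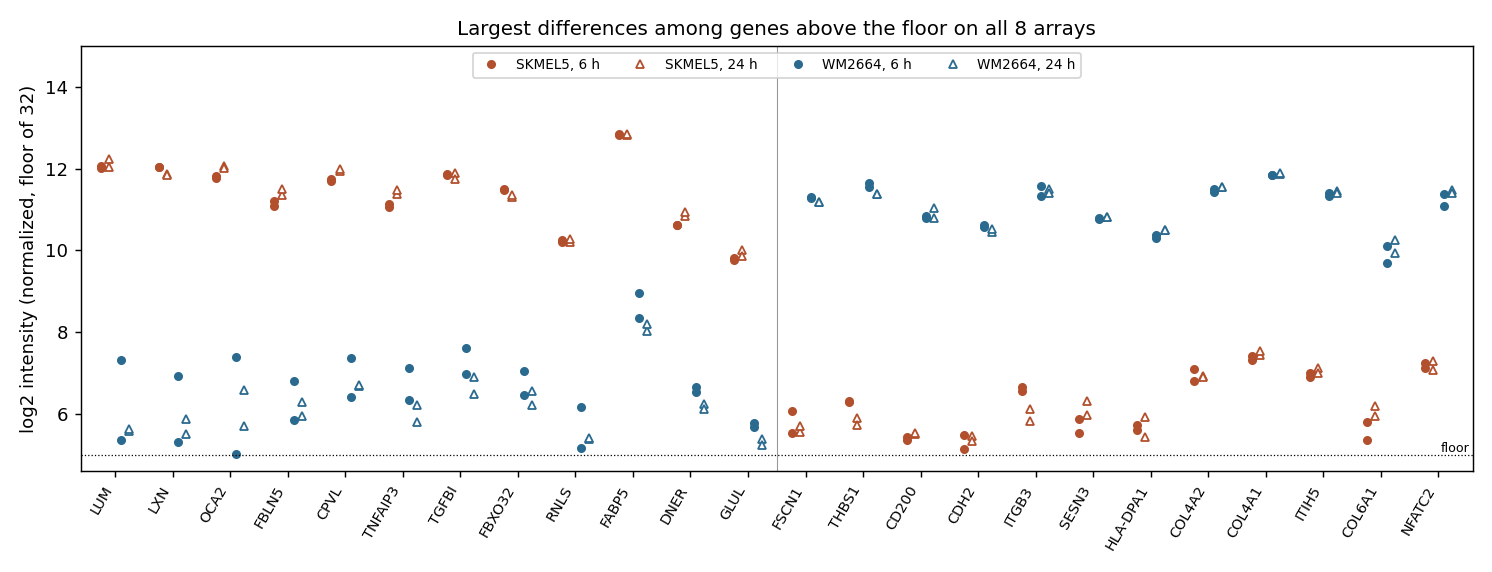
Normalized log2 intensity on each of the 8 DMSO arrays for the 2 sets of 12 leading genes above the floor on all 8, higher in SKMEL5 left of the grey line and lower right of it; SKMEL5 stands left of WM2664 within each gene, circles for 6 h and triangles for 24 h. WM2664 values spread most at LUM, LXN and OCA2, where 6 h replicate 1 is the highest. No gene shows an overlap of the lines, and all were picked for the size of their difference.

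Many genes read above the floor in 1 line only. Where SKMEL5 was at the floor on all 4 arrays, the 12 with the highest WM2664 level were at least 38.7-fold to at least 228-fold lower (adjusted p at most 2.38e-08). Such genes pass the filter only through WM2664, which fixes their direction, and the floor hides any spread in SKMEL5. Their p-values therefore do not measure the spread of both lines and add nothing to the sizes. LOXL4, a lysyl oxidase that crosslinks collagen and elastin, read 6893, 6913, 7472 and 7958 in WM2664. ALDH1A3, which makes retinoic acid from retinal, read 6187, 6712, 6712 and 6913 in WM2664, and FXYD3, a regulator of the sodium pump, read 4781, 4613, 4391 and 4914 in WM2664. These 3 were at least 228-fold, 207-fold and 146-fold lower in SKMEL5. PRDX2, a peroxiredoxin that removes hydrogen peroxide, was at least 95.9-fold lower, and its 2 other bright probe sets gave -3.62 and -3.28. IGFBP5 (at least 84.4-fold), NELL1 (at least 70.9-fold), the integrin chain ITGA4 (at least 42.4-fold) and the basement membrane genes COL15A1 and NID1 (at least 47.6-fold and 42.8-fold) followed. SERPINH1, the collagen chaperone HSP47, read 2197, 2116, 1414 and 2166 in WM2664 (at least 60.7-fold lower) and rests on 1 probe set. TF, transferrin, was at least 70.8-fold lower by its brightest probe set and the next gave -6.02, but a dim set gave 0.18 with no call.

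Where WM2664 was at the floor on all 4 arrays, the 12 with the highest SKMEL5 level were at least 23.4-fold to at least 52.4-fold higher (adjusted p at most 9.37e-09). The same limit on direction and p-values holds for this set, with the lines exchanged. NEFL, the light neurofilament chain, read 1809, 1712, 1710 and 1498 in SKMEL5. KYNU, kynureninase of tryptophan breakdown, read 1459, 1471, 1362 and 1613 in SKMEL5, and SOCS3, a feedback inhibitor of cytokine receptors, read 997, 850.5, 801 and 880.5 in SKMEL5. SLC27A3, PRUNE2, GPM6A, DNAJC12, HES6, NR4A3, OLFM1, ADCY2 and SLAIN1 complete this set. More genes were above the floor on WM2664 at 6 h replicate 1 and at it on the other 3 WM2664 arrays, CEACAM1 and IL6 among them. The 8 of these with the highest SKMEL5 level were added after their values were seen. WFDC1, a secreted protease inhibitor, read 5528, 5649, 5894 and 5682 in SKMEL5, against 127, 32, 32 and 32 in WM2664 (6.98 ± 0.42). PDK4, which holds back pyruvate dehydrogenase, read 5544, 5534, 5296 and 5605 in SKMEL5, against 169.6, 32, 32 and 32 in WM2664 (6.82 ± 0.50), and its fold was 113 on all arrays and 171 without WM2664 at 6 h replicate 1. MERTK, a receptor for phosphatidylserine-binding ligands, read 2840.5, 2976, 3037 and 3339 in SKMEL5, against 82.4, 32, 32 and 32 in WM2664 (6.23 ± 0.30). ASB4 (6.44 ± 0.27), GRAMD1B (6.18 ± 0.13), BEX4 (5.83 ± 0.13), SLCO5A1 (5.49 ± 0.11) and TMEM255A (5.33 ± 0.07) were the other 5.

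Extracellular matrix genes were the list with the most members lower in SKMEL5 among the 47 examined, and also the list with the most members tested. Metallothioneins, a smaller list, had 8 of 9 lower. Of 56 collagens, laminins and matrix proteins tested 41 were lower in SKMEL5, 31 of them at least 2-fold, and 7 were higher, with a median of -1.33. Among 18 tested genes of the collagen alpha chains, counted after the values were seen, 15 were lower and 1 higher. POSTN, periostin, was at least 29.2-fold lower, and SPARCL1 (at least 24-fold), COL9A3 (-4.43 ± 0.16), CSPG4 (-3.16 ± 0.09), a proteoglycan of melanoma cells, FBN1 (-3.13 ± 0.20), fibrillin, and LAMA4 (-2.79 ± 0.06), a laminin chain, were lower. LUM, FBLN5, DCN (3.34 ± 0.15), decorin, HAS2 (3.20 ± 0.10), which makes hyaluronan, and GPC4 (at least 8.86-fold) were higher. Matrix proteases and their inhibitors followed, with 30 of 47 lower, 13 higher and a median of -0.966. CTSK, a collagen-degrading cathepsin, read 57.3, 50.7, 32 and 84.5 in SKMEL5, against 1478, 1828.5, 1828.5 and 2084 in WM2664 (-5.08 ± 0.28). FAP, a surface protease best known from activated fibroblasts, was at the SKMEL5 floor and read 903, 863, 819 and 720.3 in WM2664. ADAM19 (-4.61 ± 0.09) and ADAM12 (at least 16-fold lower) are metalloproteases, and SERPINA3, an antichymotrypsin, ran the other way (4.39 ± 0.28).

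Cell adhesion genes of 1 family often had opposite directions. CDH1, E-cadherin, was at the floor on all 4 WM2664 arrays and read 681, 649, 809.8 and 646 in SKMEL5, at least 21.7-fold higher, while CDH2 was 36.4-fold lower. The desmosomal genes DSG2 (2.04 ± 0.07) and DSP (at least 4.31-fold), and the tight junction gene OCLN (2.74 ± 0.14), were higher in SKMEL5 as well. PCDH9 (-3.45 ± 0.17) and PCDH7 (-2.57 ± 0.10) were lower. The list of cadherins and protocadherins, which leaves out the protocadherin beta genes described further on, had 8 higher and 6 lower of 19 tested. Among integrins and immunoglobulin-type molecules 11 were higher and 20 lower of 41. Called shares were 73.7% for the cadherin list and 75.6% for the integrin list, against 68.4% of all genes. CADM1, a synaptic-type adhesion molecule, read 391, 440.1, 370 and 321 in SKMEL5, against 4097, 4230.2, 3795 and 3829 in WM2664 (-3.40 ± 0.07), and AMIGO2 read 492, 578, 484 and 493 in SKMEL5, against 32, 32, 32 and 66 in WM2664 (3.73 ± 0.24).

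Positional identity genes differed strongly. Of 26 HOX cluster genes tested 17 were lower in SKMEL5 and 3 higher, with a median of -0.602. The HOXB cluster carried much of this, with 8 of 10 lower, 6 of them at least 2-fold, and 1 higher, a split by cluster made after the values were seen. HOXB2 was at the floor on all 4 SKMEL5 arrays and read 789, 762, 793 and 741 in WM2664, at least 24.1-fold lower. HOXB3 (-2.65 ± 0.17), HOXB4 (at least 4.9-fold), HOXC10 (-2.40 ± 0.15) and HOXD10 (at least 8.27-fold) were lower too. HOXD1 stood out at 519.8, 543, 556 and 470.2 in SKMEL5, against 69.1, 59.5, 60.4 and 51.6 in WM2664 (3.12 ± 0.09). Among other patterning factors 21 of 38 were higher and 13 lower. PRRX1, a mesenchymal homeobox factor, read 32, 32, 32 and 33.4 in SKMEL5, against 1310.3, 1337, 1196 and 1139.6 in WM2664 (-5.26 ± 0.06), EMX2 was at least 21.7-fold lower, and ZIC2, a zinc finger factor of the neural plate, was at least 10-fold higher.

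Metallothioneins, small cysteine-rich proteins that bind zinc and copper, were lower as a group. All 7 tested metallothionein genes were called lower, and the median of the list of 9, which also holds the transporter SLC30A1 and the factor MTF1, was -2.69. MT2A read 387, 355, 363 and 613 in SKMEL5, against 3617, 3850.3, 3727 and 3675 in WM2664 (-3.15 ± 0.16). MT1X read 199, 204, 299.8 and 238 in SKMEL5, against 1404, 1518, 1559.5 and 1498 in WM2664 (-2.69 ± 0.10). MT1HL1, MT1F, MT1H, MT1E and MT1G differed by -3.87 ± 0.15, -3.15 ± 0.11, -3.14 ± 0.21, -2.45 ± 0.07 and -2.40 ± 0.21. These genes are near-identical copies whose probes can share signal, so they are not independent readings. SLC30A1, a zinc exporter, differed by -0.19 ± 0.06 and MTF1, which switches metallothioneins on in response to zinc, was not called (-0.19 ± 0.07).

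Redox genes moved in both directions, 18 higher and 19 lower of 45. PRDX1, another peroxiredoxin, read 8024, 7958, 7888 and 7593 in SKMEL5, against 1593, 1540.4, 1127 and 1379 in WM2664 (2.49 ± 0.09), opposite to PRDX2. HMOX1, heme oxygenase, read 914.5, 931, 1034 and 829.9 in SKMEL5, against 142.5, 145, 113 and 136 in WM2664 (2.79 ± 0.10). GPX7 was at least 30.1-fold lower and ALDH2 at least 7.36-fold higher. On intensities as deposited the balance of this list turned, to 16 higher and 12 lower.

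Lysosome genes leaned to SKMEL5, with 20 higher and 11 lower of 34 and a median of 0.32. CTSL, a cathepsin, read 4636, 4771, 4001 and 4533 in SKMEL5, against 1231, 1248, 1115.5 and 1205 in WM2664 (1.90 ± 0.06). ATP6V1C1 and ATP6V0D2, subunits of the proton pump, differed by 2.07 ± 0.06 and 2.88 ± 0.12. The mucolipin channels parted ways, MCOLN1 at 1.71 ± 0.09 and MCOLN3 at -3.70 ± 0.14. Genes of melanosome assembly and transport had 12 higher and 5 lower of 23 (73.9% called, against 68.4% of all genes). HPS4 (2.10 ± 0.15), HPS3 (1.79 ± 0.08) and HPS5 (1.08 ± 0.05), all mutated in Hermansky-Pudlak syndrome, and RAB27A (1.47 ± 0.07), which ties melanosomes to myosin, were higher. LYST, mutated in Chediak-Higashi syndrome, differed by -1.59 ± 0.10, and RAB38 and MLPH were not called (0.12 ± 0.05 and -0.01 ± 0.06).

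Genes of MHC class II were lower in SKMEL5. Of 15 tested 9 were lower, all at least 2-fold, and 3 higher at under 2-fold, with a median of -1.27. HLA-DRA, the alpha chain of every DR molecule, was at the floor on all 4 SKMEL5 arrays and read 1153, 1192, 1401 and 1217 in WM2664, at least 38.7-fold lower. HLA-DPA1 read 48.7, 52.8, 61 and 43 in SKMEL5, against 1258, 1323, 1457 and 1439 in WM2664. CD74, the invariant chain, read 80.1, 91.1, 67.8 and 85.4 in SKMEL5, against 543, 633, 538 and 565 in WM2664 (-2.82 ± 0.09), and HLA-DMB, which loads peptide, differed by -2.19 ± 0.08. HLA-DRB4 (at least 6.34-fold), HLA-DPB1 (at least 4.28-fold), HLA-DMA (-1.33 ± 0.09), CTSS (-1.27 ± 0.16) and HLA-DRB1 (-1.26 ± 0.16) were the rest of the 9. HLA-DQB1 (0.84 ± 0.22), RFXAP (0.73 ± 0.09) and RFXANK (0.23 ± 0.07) were higher. CIITA, the master regulator of the class, was not called (-0.35 ± 0.17), nor were RFX5 and HLA-DOA (0.07 ± 0.05 and -0.20 ± 0.20). HLA genes are close copies of each other, so readings of single members are uncertain.

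Class I presentation genes had 12 higher and 7 lower of 24 (79.2% called, against 68.4% of all genes), with 4 at least 2-fold. Their summed intensity was 28870 to 32013 in SKMEL5 and 31178 to 34603 in WM2664, which overlap. PSME1, a proteasome activator subunit, was lower (-1.34 ± 0.06). TAP1 read 217, 269, 195 and 147 in SKMEL5, against 47.9, 32, 72.4 and 66.6 in WM2664 (1.96 ± 0.29) and TAP2, its partner in the peptide transporter, differed by 1.25 ± 0.07. ERAP1 was higher by its brightest probe set (2.61 ± 0.10), but its other bright sets ranged from -2.14 to 1.93, so no direction is given for the gene. Interferon response genes had 11 higher and 19 lower of 46 (65.2% called). MX1 (-2.82 ± 0.19), MX2 (at least 17.7-fold), BST2 (at least 18.1-fold), IFITM1 (-2.84 ± 0.12) and GBP3 (at least 6.97-fold), all antiviral effectors, were lower, and ISG20, a nuclease, was at least 21.7-fold higher. Cytokine and NF-kappaB genes leaned to SKMEL5, with 17 higher and 7 lower of 33 (72.7% called) and a median of 0.357. TNFAIP3 read 2124, 2248, 2666 and 2824 in SKMEL5, against 139, 80.2, 55.7 and 74.3 in WM2664 (4.89 ± 0.26). CXCL1, a neutrophil chemokine, read 2055, 1819.5, 1605 and 1678 in SKMEL5, against 185, 132, 104 and 122 in WM2664 (3.74 ± 0.12), and NFKBIZ differed by 1.77 ± 0.08. TNFRSF21 (-2.39 ± 0.08) and TNFAIP6 (-2.38 ± 0.14) were lower.

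Glycolysis and hypoxia genes were lower in SKMEL5 for the most part, 26 of 39 against 7 higher, with a median of -0.585. NDRG1, a hypoxia-induced gene, read 310.4, 269.5, 374 and 366 in SKMEL5, against 5111, 5328, 5431 and 5296 in WM2664 (-4.02 ± 0.08). PFKFB4, which sets the level of a glycolytic activator, read 109, 141, 108 and 121 in SKMEL5, against 1951, 2165, 1859.6 and 1819.5 in WM2664 (-4.03 ± 0.09). PDK1 differed by -2.60 ± 0.06, CA12, a carbonic anhydrase, by -2.13 ± 0.07, the glucose transporter SLC2A1 by -1.87 ± 0.20, VEGFA by -1.86 ± 0.20 and HIF1A by -1.05 ± 0.06. PDK4 and STC1 were higher, by 6.82 ± 0.50 and at least 4.55-fold. GAPDH, LDHA and HK2 were not called (-0.07 ± 0.06, -0.10 ± 0.05 and -0.17 ± 0.08). Oxidative phosphorylation genes stayed close, 12 higher and 13 lower of 39 (64.1% called, against 68.4% of all genes). Only PPARGC1A among them differed at least 2-fold, and the balance of the list turned on intensities as deposited, to 11 higher and 4 lower.

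Cholesterol and fatty acid genes had 5 higher and 16 lower of 29 (72.4% called, against 68.4% of all genes). INSIG1, a sterol sensor, read 319, 256, 325 and 346 in SKMEL5, against 726, 655, 1033 and 1076 in WM2664 (-1.46 ± 0.11). FADS2, a desaturase, was at least 8.71-fold lower, and ELOVL7, a fatty acid elongase, at least 10.6-fold higher. Amino acid and stress response genes had 18 higher and 10 lower of 38 (73.7% called, against 68.4% of all genes). CHAC1 read 296.5, 342, 592 and 608 in SKMEL5, against 32, 32, 178 and 128.5 in WM2664 (2.65 ± 0.27), higher in both lines at 24 h than at 6 h. PHGDH, the entry enzyme of serine synthesis, read 266, 369, 638 and 557 in SKMEL5, against 1712, 1718, 2540.3 and 2432 in WM2664 (-2.26 ± 0.13), while PSPH, its last enzyme, differed by 1.55 ± 0.06. ATF3 (1.61 ± 0.15) and SESN2 (1.51 ± 0.10) were higher.

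Cell cycle lists differed in the size of their differences. Of 40 mitosis genes 23 were lower and 4 higher (67.5% called, against 68.4% of all genes), with a median of -0.32. Only 2 passed 2-fold, ASPM (-1.92 ± 0.07) and KIF11 (-1.48 ± 0.11). CDK1 read 1404, 1368, 1022 and 1084 in SKMEL5, against 2380.4, 2370.2, 2358.5 and 2237 in WM2664 (-0.95 ± 0.08), and BIRC5, survivin, ran the other way (0.84 ± 0.08). On intensities as deposited the lower count was 13 with the floor kept and 6 with a floor of 1. DNA replication genes had 8 higher and 11 lower of 41 (46.3% called, below the 68.4% of all genes), none at 2-fold, and their balance turned on intensities as deposited (8 higher and 4 lower). The list of CDK inhibitors and G1 genes had 13 higher and 12 lower of 31, and 38.7% of it differed at least 2-fold, against 21.4% of all genes. MTAP, a methionine salvage enzyme that neighbours CDKN2A, was at the floor on all 4 SKMEL5 arrays and read 283, 201.5, 293 and 271 in WM2664, at least 8.11-fold lower. CDKN2A was above the floor on 1 array of each line and was not tested. KLHL9, a neighbour of MTAP on chromosome 9, was higher in SKMEL5 (0.65 ± 0.05). E2F7 differed by -1.85 ± 0.14, E2F3 by 1.46 ± 0.21 and CDKN1C, a CDK inhibitor, by 1.35 ± 0.09.

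Receptor tyrosine kinases and their ligands had 14 higher and 14 lower of 39 (71.8% called, close to the 68.4% of all genes). The largest differences were in both directions. MET, the receptor of hepatocyte growth factor, read 3721.5, 3758, 3847 and 3950 in SKMEL5, against 269, 199.7, 217 and 220.1 in WM2664 (4.08 ± 0.09). MERTK and EPHA4 (at least 9.63-fold) were higher in SKMEL5, AXL and ROR1 (-2.06 ± 0.09) lower. PDGFA, a ligand, was at the SKMEL5 floor and at least 35.9-fold lower. Of 24 MAP kinase feedback genes 8 were higher and 12 lower. SPRY4 (-1.94 ± 0.12) was lower, DUSP1 (1.86 ± 0.06) and IER3 (1.54 ± 0.09) higher, and this balance turned on intensities as deposited. In the list of RAS, RAF and PI3K pathway components 12 were higher and 8 lower of 29 (69% called, against 68.4% of all genes). PIK3CD, the catalytic subunit best known from leukocytes, read 490.3, 444, 489 and 473 in SKMEL5, against 33.3, 45.6, 66.3 and 36.2 in WM2664 (3.44 ± 0.20), and PIK3CB (1.12 ± 0.06) and PIK3R1 (1.27 ± 0.17) were higher. AKT2, a kinase of the pathway, was lower (-1.11 ± 0.13), but its sign turned without x and s probe sets (0.27, adjusted p = 0.129).

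Genes of developmental signalling pathways had large differences in both directions. JAG1, a Notch ligand, read 2108, 2136, 2374 and 2473 in SKMEL5, against 252.5, 189, 203.5 and 189 in WM2664 (3.45 ± 0.11). HES6, HEY2 (2.89 ± 0.16) and DLK1 (5.22 ± 0.07), an imprinted gene related to the Notch ligands, were higher as well. MAML3 (-2.32 ± 0.08) and DTX3 (at least 6.78-fold) were lower. In all, 8 Notch genes were higher and 9 lower of 22 (77.3% called, against 68.4% of all genes). In the TGF-beta and BMP list 15 were higher and 18 lower of 42. SMAD9, a BMP effector, was higher by 3.32 ± 0.08, in the same direction as ID1, ID2 and ID3, and FST, which binds activin, was at least 7.09-fold lower. For Wnt genes 11 were higher and 14 lower of 36 (69.4% called, against 68.4% of all genes). DKK3 read 32, 32, 33.8 and 39.8 in SKMEL5, against 1197, 1248, 1305 and 1308 in WM2664 (-5.20 ± 0.06), SFRP1, a secreted antagonist, was at least 9.7-fold higher, and FZD1, a receptor, differed by -2.29 ± 0.06. In the guidance list, 17 higher and 17 lower of 42, PLXNC1, a semaphorin receptor, read 818, 692, 675.5 and 772 in SKMEL5, against 59.4, 53.2, 50.6 and 60.4 in WM2664 (3.73 ± 0.09) and NRP1 was at least 5.25-fold lower. On intensities as deposited with a floor of 1 the Notch and TGF-beta lists turned, to 9 higher and 7 lower and to 16 higher and 15 lower.

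Genes best known from neurons were divided, 12 higher and 12 lower of 29. NEFL, GPM6A and VGF (3.96 ± 0.27), a secreted neuropeptide precursor, were higher. MAP2 (at least 20.9-fold), a dendritic microtubule protein, and HTR2B (at least 21.7-fold), a serotonin receptor, were lower. MBP, myelin basic protein, was 90.7-fold lower by its brightest probe set, but 3 of its 4 other bright sets had the opposite sign, so no direction is given.

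Antigens normally restricted to the testis leaned to SKMEL5, 12 higher and 5 lower of 19. MAGEB2 read 1701, 1590.5, 1633 and 1618.5 in SKMEL5, against 61.4, 32, 32 and 37 in WM2664 (5.39 ± 0.20) and MAGEC2 994, 1043, 774 and 788 in SKMEL5, against 165, 194, 222 and 228 in WM2664 (2.15 ± 0.15). MAGEA11 was at least 5.62-fold lower and SSX3 differed by -2.31 ± 0.10. These families hold near-identical copies, which probes may not separate. Imprinted genes had 11 higher and 6 lower of 21 (81% called, against 68.4% of all genes).

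In the histone acetylation list 8 were higher and 6 lower of 26 (53.8% called), and HDAC9 (2.49 ± 0.09) was the largest. In the histone and DNA methylation list 11 were higher and 19 lower of 44 (68.2% called, against 68.4% of all genes), with DNMT3A at 1.18 ± 0.08, DNMT3B at -1.08 ± 0.12 and TET3 at -1.53 ± 0.06, and 5 members passed 2-fold. The balance of the methylation list turned under another scaling, as did that of the housekeeping list. Among genes used by every cell, 0 of 39 ribosomal protein genes and 0 of 24 housekeeping genes were called at 2-fold. Their medians were 0.0244 and -0.0776.

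Markers of other cell types were checked as well. Of 22 leukocyte markers 5 were tested and 1 was called, LAPTM5, at the floor in SKMEL5 and at least 1.49-fold lower, and 12 of the 19 on the array were at the floor on all 8 arrays. Of 12 endothelial markers 9 were at the floor on all 8. Keratinocyte and epithelial markers summed to 8804 to 9051 in SKMEL5 and 6964 to 7270 in WM2664, and 14 of 31 were at the floor on all 8. Of 13 tested 5 were higher, led by CDH1, OCLN and DSP, and 3 lower, among them KRT18, a keratin (at least 5.42-fold), and KRT7 (-0.57 ± 0.17). Fibroblast markers summed to 5161 to 5973 in SKMEL5 and 5237 to 5778 in WM2664, and 10 of 20 were at the floor on all 8. Their direction depended on the gene: LUM and DCN were higher, and COL1A2, POSTN, FAP and ACTA2 (-1.43 ± 0.14) were lower in SKMEL5. The arrays read RNA of whole cultures, so fewer cells that express a gene and less RNA per cell cannot be told apart, and the part of other cell types in these differences was not tested.

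**Figure D4:**
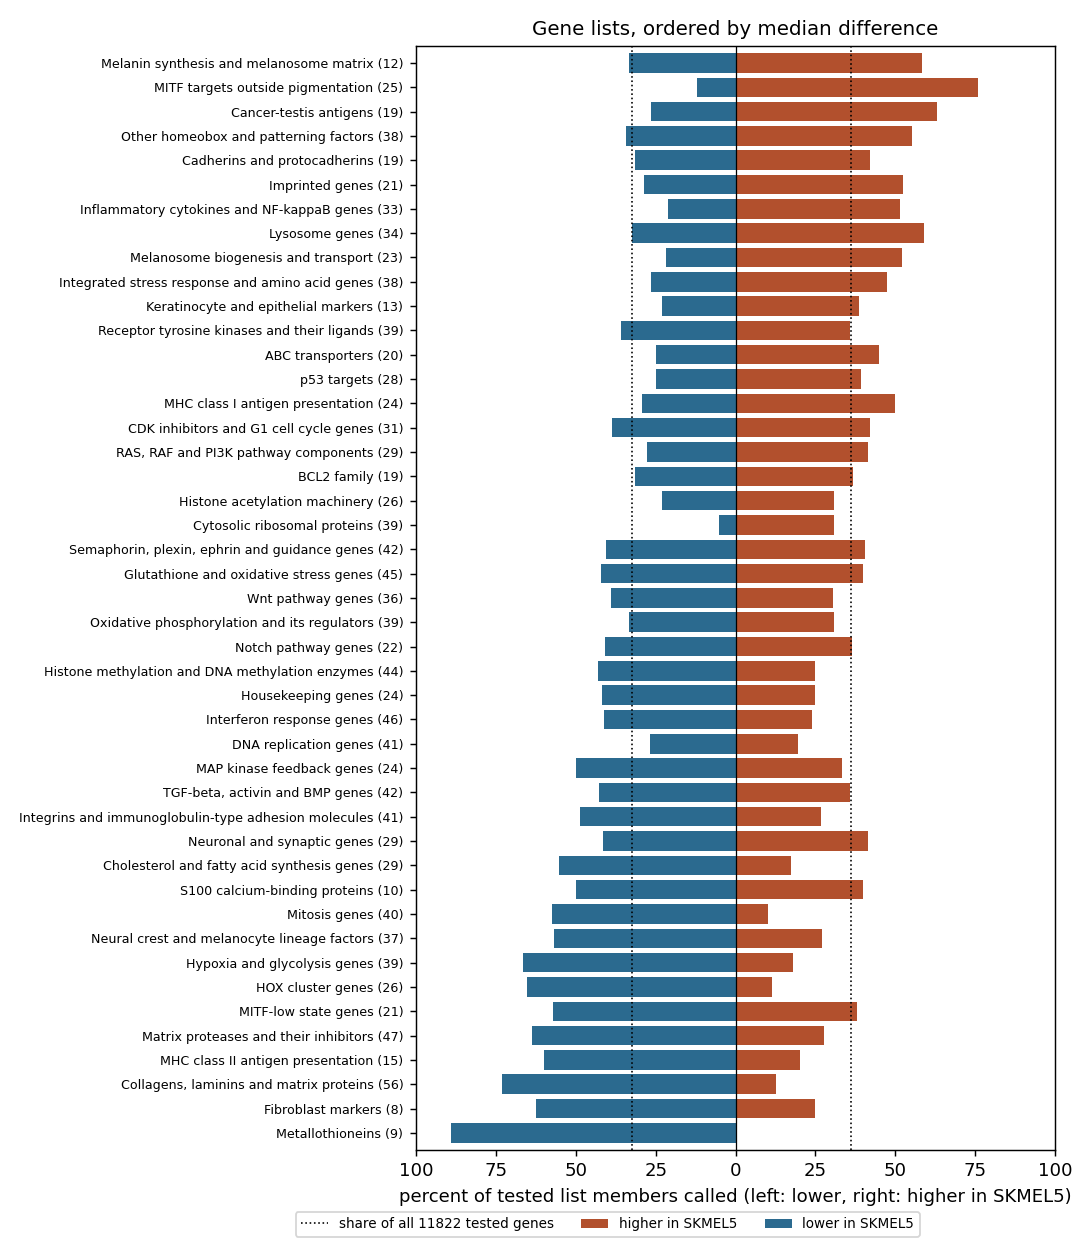
Share of the tested members of each of 45 gene lists called higher (right) or lower (left) in SKMEL5, ordered by the median difference of the list, with the number tested in brackets; dotted lines mark the shares of all 11822 genes, 36% and 32.5%. Lists with fewer than 8 tested members are not drawn. Metallothioneins, matrix genes, HOX genes and hypoxia genes lie to the left, and MITF targets and cancer-testis antigens to the right.

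Differences were also laid out along the gene order. Over the 11797 tested genes that could be placed, chromosome medians ran from -0.379 for chromosome 13 (47 higher and 130 lower of 230) to 0.324 for chromosome 9 (264 higher and 100 lower of 481). In 464 windows of 25 neighbouring tested genes the median ranged from -1.61 to 1.25, with 15 windows below -0.5 and 37 above 0.5. The highest window lay at the end of chromosome 17, where 22 of 25 genes from LINC03048 to RAC3 were higher and 0 lower. There the differences were moderate and shared, for example NPLOC4 (1.54 ± 0.13), HGS (1.30 ± 0.09), MRPL12 (1.58 ± 0.05), SIRT7 (1.60 ± 0.16) and TSPAN10 (2.91 ± 0.14). Another 3 windows of chromosome 17, which begin at PRPSAP1, PRKAR1A and TIMP2, had medians of 0.837, 0.85 and 1.11. A window of chromosome 1 from PTGS2 to SHISA4 had a median of -1.01, with 21 lower and 2 higher, among them NEK7 (-1.66 ± 0.06), ASPM and KIF14 (-1.71 ± 0.07). Another on chromosome 11 from INPPL1 to ARRB1 had a median of 1.06, with 21 higher and 1 lower. These windows were picked for their values and have no test.

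**Figure D5:**
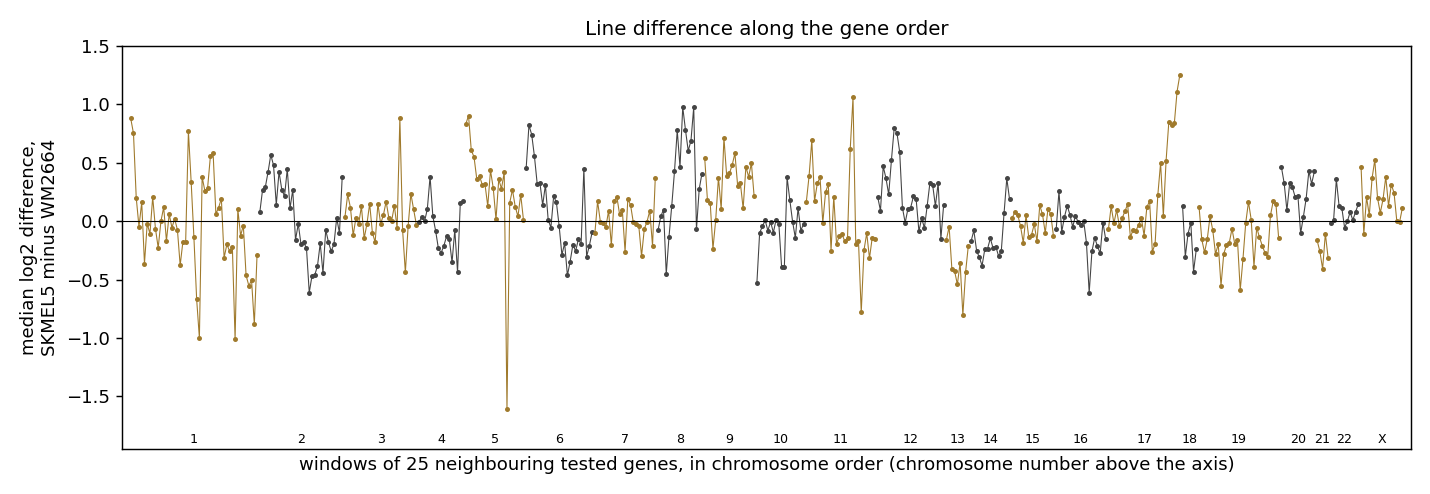
Median log2 difference (SKMEL5 minus WM2664) of each window of 25 neighbouring tested genes, in chromosome order from 1 to X, with a change of colour at each chromosome. Most of the 464 windows lie between -0.5 and 0.5, the lowest at -1.61 is on chromosome 5 and the highest at 1.25 at the end of chromosome 17.

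The lowest window, on chromosome 5, was of another kind. It ran from ZMAT2 to ARAP3 with 18 genes lower and 6 higher, and it holds the clustered protocadherins, adhesion proteins that neurons express in different combinations. Of 17 protocadherin beta genes on the array, a family picked after its values were seen, 14 were tested, and all 14 were lower at least 2-fold, with a median of -2.35. Of the tested 14, SKMEL5 was at the floor on all 4 arrays for 10, and WM2664 was above it on all 4 for 14. For those 10 the filter fixed both the direction and the WM2664 count. A gene at the SKMEL5 floor is tested only where all 4 WM2664 arrays are above it. PCDHB6 read 812, 708, 785.5 and 786.5 in WM2664 and was at least 24.1-fold lower. PCDHB2, PCDHB7 and PCDHB3 were at least 11.7-fold, 8.84-fold and 7.8-fold lower. PCDHB5 was the exception in level, at 168, 161, 122.5 and 156 in SKMEL5, against 855, 812, 751 and 766.5 in WM2664 (-2.40 ± 0.08). Of the genes in the window outside the protocadherin families, 6 were higher and ARAP3 was lower (-2.19 ± 0.12). TAF7, which lies inside the cluster, was higher by 0.60 ± 0.05, and ZMAT2 and DIAPH1 at its edges by 0.67 ± 0.10 and 0.55 ± 0.08. Only 1 of 6 protocadherin alpha and 3 of 13 protocadherin gamma genes on the array could be tested, with 1 and 2 lower. The beta genes are close copies, so their probe sets may share signal and are not independent readings.

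Last, the difference between the lines was compared between the times. No gene was called for a line difference at 24 h that departs from that at 6 h (0 of 11822 by limma, smallest adjusted p = 0.0872). In simulated data this test recovered 40% of changes of 1 log2 and 0% of 0.5 log2, so modest changes would be missed. An unadjusted p under 0.05 was found for 1550 genes (13.1%), where chance gives 5%. This excess depends on the scaling. On intensities as deposited the count was 536 of 11603 genes with the floor of 32 and 826 of 17160 with a floor of 1. Neither is above 5%. Other settings gave between 0 and 89 calls. Some genes with the smallest p-values, picked after their values were seen, belong to groups described above. VEGFA read 294, 269.5, 525 and 512.5 in SKMEL5, against 1499, 1440.1, 1316 and 1303 in WM2664, a change of the difference by 1.05 ± 0.10. SLC2A1 read 205, 179.9, 235 and 255 in SKMEL5, against 973, 1039.9, 623 and 622 in WM2664 (1.04 ± 0.12). In both genes the lines were closer at 24 h. SREBF2, a regulator of cholesterol synthesis, read 92.9, 85.3, 68.6 and 65.5 in SKMEL5, against 159.8, 151, 278 and 239.9 in WM2664 (-1.14 ± 0.13), and there they were further apart. None of these 3 passed the threshold.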

How the data were processed

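RNA of the 8 DMSO arrays was biotin-labelled with the Affymetrix 3' IVT Plus kit and read on HG-U133 Plus 2.0 arrays, per the labels' protocols. The deposited values are linear intensities per probe set, of which 20.4% to 22.9% on an array lie below 0; for the software and background correction behind them the record is: not given in the sources used here. Intensities were quantile normalized over the 18 arrays, set to at least 32 and taken to log2. The brightest probe set of each gene over the 18 arrays was kept (41091 of 54613 probe sets name 1 symbol, 1801 several and 11721 none). limma 3.58.1 in R 4.3.3 fitted line and time on the 8 arrays, and line by time for the change of the difference. Both fits were tested on simulated data with known changes, 50 genes at each size among 11822. Of changes of 1 log2, 82% were recovered for the line difference and 40% for its change with time. At 0.5 log2 these shares were 58% and 0%. Far fewer genes were changed in the simulation than the 68.4% called here, which makes the adjustment of p-values stricter there. The shares for the line difference therefore do not give the sensitivity of the line comparison in these data. A difference with 1 line at the floor is a lower bound on its size, and folds written "at least" set the bright mean against the floor. The number of arrays limits the precision. No array was left out, and arrays treated with A-485 and those of A375 served for normalization and for levels.

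Genes named are the 12 largest called differences in each direction above the floor on all 8 arrays, the 12 brightest at the floor in the other line in each direction, all measured melanocytic markers, and the up to 6 largest called members of each list; other names were added after their values were seen. Members and lists were chosen with earlier results of these data known. Alternatives were scaling, floor, filter, probe set rule, prior, arrays fitted, a replicate block and leaving out each array.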

Additional observations from a re-analysis of the deposited data

Results flagged for a closer look

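In 13 of the values checked, 1 array lay further from the other 3 of its line than Dixon's 95% limit for 4 values. The check covered 73 genes in 2 lines, and chance flags about 1 in 20 groups. WM2664 at 6 h replicate 1 gave 10 of the 13. It read 158 for LUM, against 41.1 to 49.7 on the other WM2664 arrays. With the other 3 arrays at the floor of 32, it read 127 for WFDC1, 170 for PDK4, 72.8 for ASB4, 82.4 for MERTK, 47.2 for GRAMD1B, 37.2 for BEX4, 42.8 for SLCO5A1 and 36.6 for TMEM255A. These 8 genes were named because they showed this pattern. Their flags were fixed by that choice, and the chance rate does not apply to them. The remaining flags, that of LUM among them, are no more than this rate gives over the groups checked. The same array was low for SOX10, at 3070 against 3370 to 3420. SERPINH1 was low on WM2664 at 24 h replicate 1, at 1410 against 2120 to 2200. TRPM1 read 1080 on SKMEL5 at 24 h replicate 1, against 1180 on the others. GPNMB read 5700 on SKMEL5 at 24 h replicate 2, against 5430 to 5460.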

How the results depend on the processing

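The count of called genes stayed within 1.5 times of 8092 in every alternative except intensities as deposited with a floor of 1, which gave 5275. The 2-fold count, 2524, moved further only among genes above the floor on all 8 arrays, where it was 1584. Leaving out each array in turn gave 7655 to 7903 called genes, 2511 to 2551 of them 2-fold, and 0 to 4 genes for the change of the difference with time. That change had 0 calls in the fit described, and 19 and 5 on intensities as deposited with floors of 32 and 1, 3 with a floor of 16, 89 with no filter, 2 without x and s probe sets, 36 with a trended and robust prior and 58 with all 18 arrays fitted. Without x and s probe sets 4 named genes changed sign: TF to 0.18, AKT2 to 0.27, TFDP2 to -0.57 and VCP to 0.060. Arrays of the same replicate number did not deviate together (correlations of 0.0068 at 6 h and 0.052 at 24 h), and with the replicate block 7804 genes were called, 2520 of them 2-fold, and 0 for the change with time. Of 299 named genes, 6 and 15 lost their call on intensities as deposited with floors of 32 and 1. The causes of these moves were not tested. Genes near the floor limit what the arrays can show, since 6368 untested genes were at it on all 8.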

Other observations

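The first 3 lists here were called at about the share of all genes, 68.4%. Of 28 p53 targets 11 were higher in SKMEL5 and 7 lower (64.3% called). Among 19 BCL2 family genes 7 were higher and 6 lower (68.4%), with HRK, a proapoptotic BH3-only gene, at 1.86. Of 20 ABC transporters 9 were higher and 5 lower (70%). ABCC2, a drug exporter, differed by 2.42 and ABCA1, a cholesterol exporter, by -1.80. Of 10 tested S100 genes 4 were higher and 5 lower (90%), and this balance turned under another scaling.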
